A study of Mus musculus with 9 samples.

Results

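The PYHIN family of interferon-inducible genes was followed gene by gene in endothelial cells of mouse bone marrow, the cells that line marrow vessels. The members were 9 genes of the 52183 in the deposited table: Ifi203, Ifi203-ps, Ifi204, Ifi207, Ifi208, Ifi209, Ifi211, Ifi213 and Mndal. They were matched by symbol. The family was selected on the FPKM of Ifi208, which was almost unread in the libraries labelled Thbs1 knockout. The levels of the members in those libraries are therefore given as a description and without a test, and the comparison of age among controls is the one that was tested. All 9 lie on chromosome 1 of GRCm38 between 173566283 and 173942672, a span of 376 kb.

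The 9 libraries form 3 groups of 3: mice of 18 months labelled as Thbs1 knockouts, control mice of 18 months and control mice of 3 months. In every group VE-cadherin, a junction protein of endothelium, was marked by an injected antibody shortly before death, and the cells were sorted from long bones. Thbs1 is the gene of thrombospondin-1, a protein secreted into the matrix. No strain, altered allele or Cre driver is named in the labels, and whether each library is its own mouse is not said. The p-values below therefore cover spread among libraries, which may be technical.

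PYHIN proteins carry an N-terminal pyrin domain, which binds other pyrin domains, and in most cases a HIN domain, which binds DNA. Interferons induce many of them, and they are best known in blood cells as sensors of DNA in the cytosol or nucleus. Aim2 builds an inflammasome on foreign DNA, and Ifi204 has been tied to signalling through Sting1. In mice the genes form a cluster of close relatives, and its gene content is known to differ between inbred strains.

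The promoters are shown because a common motif in them is one thing that could be shared by genes that move together. RefSeq's promoter windows (GRCm38.p6, 250 bases before to 50 after each start) covered 7 of the 9 members, all but Ifi204 and Ifi203-ps. The core of the interferon-stimulated response element, searched on both strands as GAAA, any 2 bases and GAAA again, was present for 6 of these 7 members, against 3.99% of the 27025 genes in the table. Ifi209 was the member without a match. A gene with several windows counted if any of them matched. Ifi203 has another window, from a start further upstream, that had no match, so its stretch below lies inside the annotated gene. The gamma-activated site TTCNNNGAA was found for 0 of the 7 members, against 9.55% of those genes, so that no match of one motif overlaps one of the other there. A match is a run of letters and not a bound site. The stretches below run 5′ to 3′ on each gene's own strand, end before the RefSeq start and show the match to the response element core in capitals. Ifi209 is shown without capitals at its closest ungapped match to Ifi208, and Ifi206, which is not a member, is added because its promoter is so near to that of Ifi208.
Ifi208 (chr1:173673582-173673631, + strand): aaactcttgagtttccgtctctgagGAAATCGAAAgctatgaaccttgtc
Ifi213 (chr1:173599321-173599370, − strand): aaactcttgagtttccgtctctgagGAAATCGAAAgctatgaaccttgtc
Ifi206 (chr1:173491334-173491383, − strand): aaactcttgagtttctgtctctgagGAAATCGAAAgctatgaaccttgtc
Ifi209 (chr1:173630755-173630804, + strand): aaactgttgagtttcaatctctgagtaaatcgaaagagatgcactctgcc
Ifi207 (chr1:173741826-173741875, − strand): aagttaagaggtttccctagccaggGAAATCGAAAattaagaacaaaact
Ifi211 (chr1:173913059-173913108, − strand): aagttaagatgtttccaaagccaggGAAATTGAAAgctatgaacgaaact
Ifi203 (chr1:173942503-173942552, − strand): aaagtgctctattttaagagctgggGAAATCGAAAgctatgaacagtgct
Over these 50 bases Ifi213 had the same letter as Ifi208 at 50 positions, Ifi206 at 49, Ifi209 at 40, Ifi203 at 33, Ifi211 at 29 and Ifi207 at 28. The stretch of Mndal, the sixth member with a match, has the same letters as that of Ifi203 and is not printed because it overlaps an annotated exon. In a local alignment of the 250 bases before the start, Ifi208 and Ifi213 shared 233 of 235 aligned positions, and Ifi208 and Ifi206 shared 231 of 232. Ifi208, Ifi213 and Ifi206 thus have almost one promoter sequence in the reference genome, which is a C57BL/6J genome.

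Transcript sequence is shared as well, which limits how well reads can be assigned to single members. The share of 50-base words of a gene's GENCODE M21 transcripts that also occur in a transcript of another gene was 72.8% for Ifi211, 33.7% for Ifi209, 26.3% for Ifi203-ps, 20.9% for Ifi208, 20.0% for Ifi204, 19.6% for Mndal, 15.6% for Ifi213, 12.4% for Ifi203 and 7.29% for Ifi207. Ifi208 shared 18.1% of its words with Ifi213 and 6.07% with Ifi206, and none with the other members. Ifi211 shared 44.7% with Ifi205 and 30.1% with Ifi204, and Ifi203-ps shared 24.3% with Ifi203. How the authors counted reads that match several genes is not given in the sources used here, so the values of Ifi211 above all are uncertain. Exons of Mndal and Ifi203 overlap on the same strand by 37 bases.

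**Figure D1:**
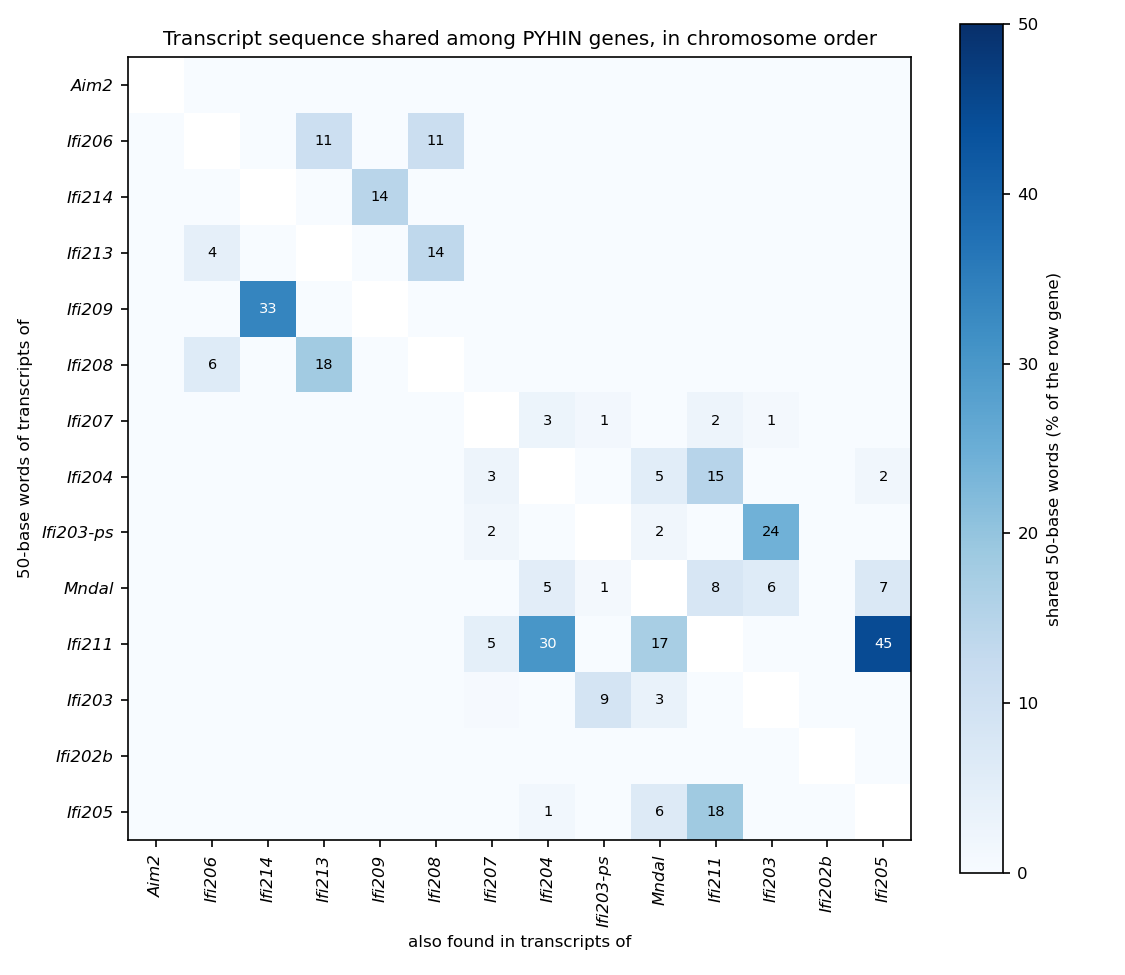
Share of the 50-base words in the transcripts of each row gene that also occur in transcripts of each column gene, in percent, with genes in chromosome order. Ifi208 shares 18.1% with Ifi213, and Ifi211 shares 44.7% with Ifi205, while Ifi202b shares none.

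Values are deposited FPKM, fragments scaled to the length of the gene and the depth of the library. The depth recovered from them was 22160000 to 30410000 fragments per library and was highest in the 3 libraries labelled knockout. Thbs1 itself did not match the label, with 25.63, 19.45 and 19.84 FPKM in the 3 libraries labelled knockout, 0.67, 0.82 and 1.17 FPKM in aged controls, and 4.55, 3.89 and 4.18 FPKM in young controls. Exons cannot be told apart in these values. Of 10 endothelial markers, all were measured, and their summed level was 1650 to 1907 FPKM in the libraries labelled knockout, 1546 to 1716 in aged controls and 1763 to 1853 in young controls. Because PYHIN genes are known from blood cells, markers of those cells were also read. The pan-leukocyte gene Ptprc stood at 0.03 to 0.06, 0.06 to 0.11 and 0.08 to 0.13 FPKM in the 3 groups in that order. The sum of 10 macrophage and monocyte markers was 62.9 to 76.9, 79.4 to 92.8 and 62.6 to 109 FPKM. The sum of 7 B and plasma cell markers varied most, with 4.40, 1785 and 532 FPKM in the libraries labelled knockout, 3013, 1582 and 477 FPKM in aged controls and 12.9, 5.86 and 517 FPKM in young controls. The sums of neutrophil, erythroid and megakaryocyte markers overlapped between all groups. The sum of 7 stromal markers was 27.6 to 36.2 FPKM in the libraries labelled knockout, 36.1 to 45.5 in aged controls and 65.7 to 75.5 in young controls. The sum of 7 T and NK cell markers was 0.27 to 2.19 FPKM in the libraries labelled knockout, 0.64 to 1.43 in aged controls and 0.27 to 1.86 in young controls. Of these 7, 4 (Cd3e, Cd3g, Cd8a and Ncr1) were under 0.1 FPKM in each library and Cd8a was listed at 0. In bulk RNA, fewer cells of a type and less RNA per cell cannot be told apart.

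Ifi208 (173673675 to 173698395, + strand) is the gene for which the family was chosen. RefSeq lists Pydc3 among its synonyms, a name of the pyrin domain series. It stood at 0.05, 0.01 and 0.09 FPKM in libraries labelled Thbs1 knockout, at 2.78, 2.55 and 2.26 FPKM in aged controls, and at 6.16, 3.66 and 4.13 FPKM in young controls. Each library labelled knockout lay below each of the 6 controls, and each aged control lay below each young control. In fragments, recovered from FPKM, exon length and depth and exact to about 1 fragment, these values come to 7, 2 and 13 in the libraries labelled knockout, 324, 307 and 292 in aged controls and 741, 440 and 519 in young controls. Per unit of depth the libraries labelled knockout held 0.0194 of the level of aged controls (22 against 923 fragments) and 0.0105 of that of young controls (22 against 1700 fragments), with the 3 libraries of a group summed. As differences of mean log2(FPKM + 1), a scale on which low genes change too little, these were -1.75 against aged and -2.40 against young controls.

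Ifi213 (173566283 to 173599274, − strand), whose promoter stretch has the letters of that of Ifi208, was read in the same libraries at levels that reached those of controls. It stood at 1.59, 1.96 and 2.54 FPKM in libraries labelled Thbs1 knockout, at 1.76, 1.35 and 1.45 FPKM in aged controls, and at 4.24, 2.34 and 2.39 FPKM in young controls. The libraries labelled knockout overlapped both control groups. Ifi206 (173468485 to 173491041, − strand), the third gene with this promoter and not a member, stood at 2.08, 1.64 and 2.50 FPKM in libraries labelled Thbs1 knockout, at 1.40, 0.99 and 1.41 FPKM in aged controls, and at 5.10, 2.23 and 2.54 FPKM in young controls. Ifi206 was tested in each comparison and was not called by limma. Its log2 difference was 0.44 ± 0.232 SE in labelled knockout against aged controls (limma adjusted p = 0.284) and -0.43 ± 0.232 SE in labelled knockout against young controls (limma adjusted p = 0.614). In aged against young controls it was -0.87 ± 0.232 SE, with no overlap (limma adjusted p = 0.0651, unadjusted 0.00396), larger in size than that of any member. Within a library labelled knockout, Ifi213 thus had 305, 408 and 473 fragments where Ifi208 had 7, 2 and 13.

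**Figure D2:**
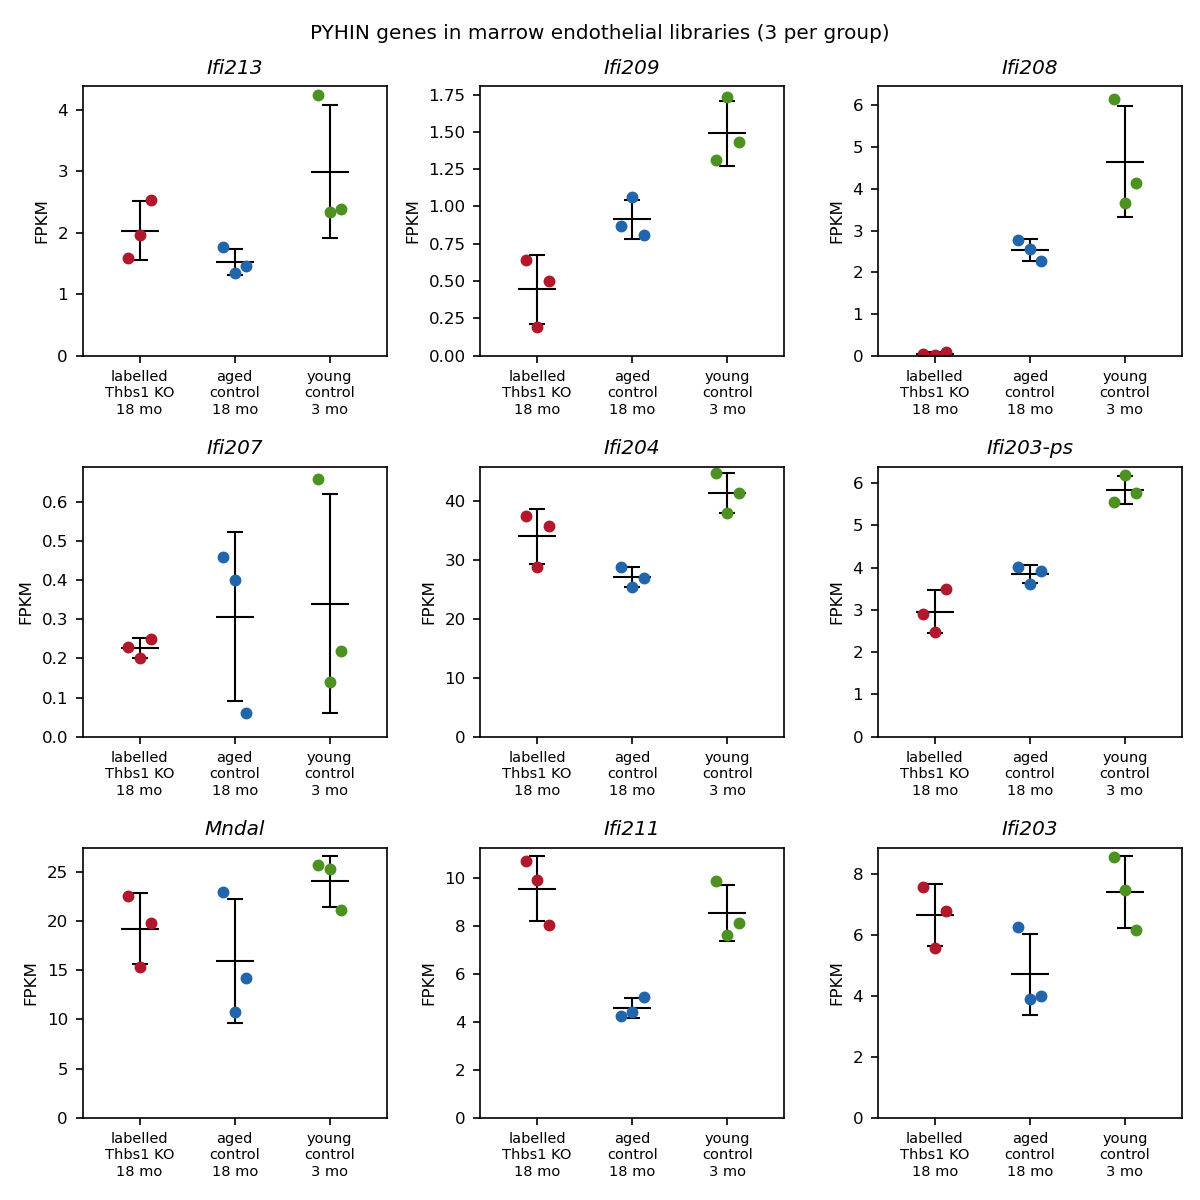
FPKM of each PYHIN gene in each library (points), with the mean and SD of each group of 3 (bars), groups from left to right: labelled Thbs1 knockout, aged control, young control. Ifi208 is at 0.01 to 0.09 FPKM in the libraries labelled knockout, while the means of Ifi213, Ifi204, Mndal and Ifi203 there lie between those of aged and young controls, and that of Ifi211 is above both.

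Beside Ifi208 a few members were lower and others higher in the libraries labelled knockout. Ifi209 (173630917 to 173647928, + strand), the neighbour of Ifi208 on the same strand, stood at 0.64, 0.19 and 0.50 FPKM in libraries labelled Thbs1 knockout, at 0.87, 1.06 and 0.81 FPKM in aged controls, and at 1.31, 1.73 and 1.43 FPKM in young controls. The 3 groups of Ifi209 did not overlap. Its mean in the libraries labelled knockout was 0.485 of that in aged controls. Ifi203-ps, an unprocessed pseudogene (173776529 to 173798270, − strand), stood at 2.90, 2.47 and 3.50 FPKM in libraries labelled Thbs1 knockout, at 4.01, 3.62 and 3.91 FPKM in aged controls, and at 5.54, 6.19 and 5.77 FPKM in young controls. Its groups did not overlap either, in the same order as for Ifi208 and Ifi209. Ifi207 (173723427 to 173741747, − strand) was the lowest member in controls, with 0.23, 0.20 and 0.25 FPKM in the libraries labelled knockout, 0.46, 0.40 and 0.06 FPKM in aged controls and 0.66, 0.14 and 0.22 FPKM in young controls. Its groups overlapped, and at 5 to 52 fragments per library little can be read from it.

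The members with the highest levels per length behaved otherwise. Ifi204 (173747293 to 173766943, − strand), a relative of the human DNA sensor IFI16, stood at 37.36, 28.71 and 35.76 FPKM in libraries labelled Thbs1 knockout, at 28.77, 25.39 and 26.81 FPKM in aged controls, and at 44.72, 37.93 and 41.37 FPKM in young controls. The libraries labelled knockout lay below the young controls and overlapped the aged controls through replicate 2. Mndal (173849126 to 173942491, − strand) stood at 22.62, 15.38 and 19.79 FPKM in libraries labelled Thbs1 knockout, at 22.94, 10.74 and 14.18 FPKM in aged controls, and at 25.73, 25.33 and 21.11 FPKM in young controls. Its aged control replicate 1 stood well above the other 2 and in reach of the young controls.

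Ifi203 (173920407 to 173942672, − strand) stood at 7.58, 5.58 and 6.77 FPKM in libraries labelled Thbs1 knockout, at 6.24, 3.88 and 3.99 FPKM in aged controls, and at 8.54, 7.48 and 6.17 FPKM in young controls. Its groups overlapped, with the means of the libraries labelled knockout and of young controls close together. Ifi211 (173896345 to 173913046, − strand), for which RefSeq lists Mnda as a synonym, stood at 10.72, 9.91 and 8.06 FPKM in libraries labelled Thbs1 knockout, at 4.25, 4.42 and 5.04 FPKM in aged controls, and at 9.87, 7.62 and 8.14 FPKM in young controls. It was the member with the highest mean in the libraries labelled knockout relative to aged controls, at 2.09 times, with no overlap between those groups. Ifi204 and Mndal, which hold 30.1% and 17.1% of its words, also had higher means there but by less, at 1.26 and 1.21 times. Ifi207, which holds 4.68% of them, was at 0.739 times. Ifi205 was listed at 0 to 0.06 FPKM in the 9 libraries, too low to show a pattern. What part shared reads had in the values of Ifi211 was not tested.

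Set side by side, the members did not share one direction between the libraries labelled knockout and the aged controls. The mean log2(FPKM + 1) was higher for 5 members (Ifi211, Ifi203, Ifi204, Mndal and Ifi213, differences of 0.26 to 0.92) and lower for 4 (Ifi208, Ifi209, Ifi203-ps and Ifi207, differences of -1.75 to -0.08). Of the 4 with lower means against aged controls, Ifi209, Ifi208 and Ifi207 are consecutive members on the chromosome. For Ifi207, however, the difference was only -0.08 with overlapping groups, so it adds little to a shared direction of neighbours. Ifi203-ps is parted from them by Ifi204, which had a higher mean. The groups did not overlap for 3 members that were lower, against 11.1% of the 11796 tested genes in that direction, and for 1 that was higher, against 12.1%. Means were higher for 50.4% of all tested genes and lower for 49.6%. These counts come from the comparison that picked the family and stand as a description. Against young controls, 8 members had a lower mean and 1, Ifi211, a higher one, with 57.7% and 42.3% of all tested genes lower and higher. In that comparison 4 members did not overlap and were lower (Ifi208, Ifi209, Ifi203-ps and Ifi204), against 14.0% of all tested genes, and 0 were higher without overlap, against 8.46%. The counts of members here include Ifi209 and Ifi207, whose means are under the 1 FPKM that all tested genes reached. Replicate 2 labelled knockout was the lowest of its group for 7 of 9 members, against 37.9% of all tested genes, and it also held the highest B and plasma cell sum of that group (1785 FPKM). The macrophage and monocyte sum was 62.9 to 76.9 FPKM in the libraries labelled knockout and 79.4 to 92.8 FPKM in aged controls, without overlap. Of its 10 markers, 9 were lower and 1 higher by mean. The part of these blood cells was not tested. Without labelled knockout replicate 2 the differences against aged controls were -1.72 for Ifi208, -0.21 for Ifi203-ps, 0.43 for Ifi204, 0.45 for Mndal, 0.54 for Ifi203 and 0.89 for Ifi211. The difference of Mndal, 0.30 over all libraries, was 0.07 without aged control replicate 2, 0.19 without labelled knockout replicate 1 and 0.59 without aged control replicate 1. That of Ifi213 was 0.26 over all libraries and 0.14 without labelled knockout replicate 3.

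**Figure D3:**
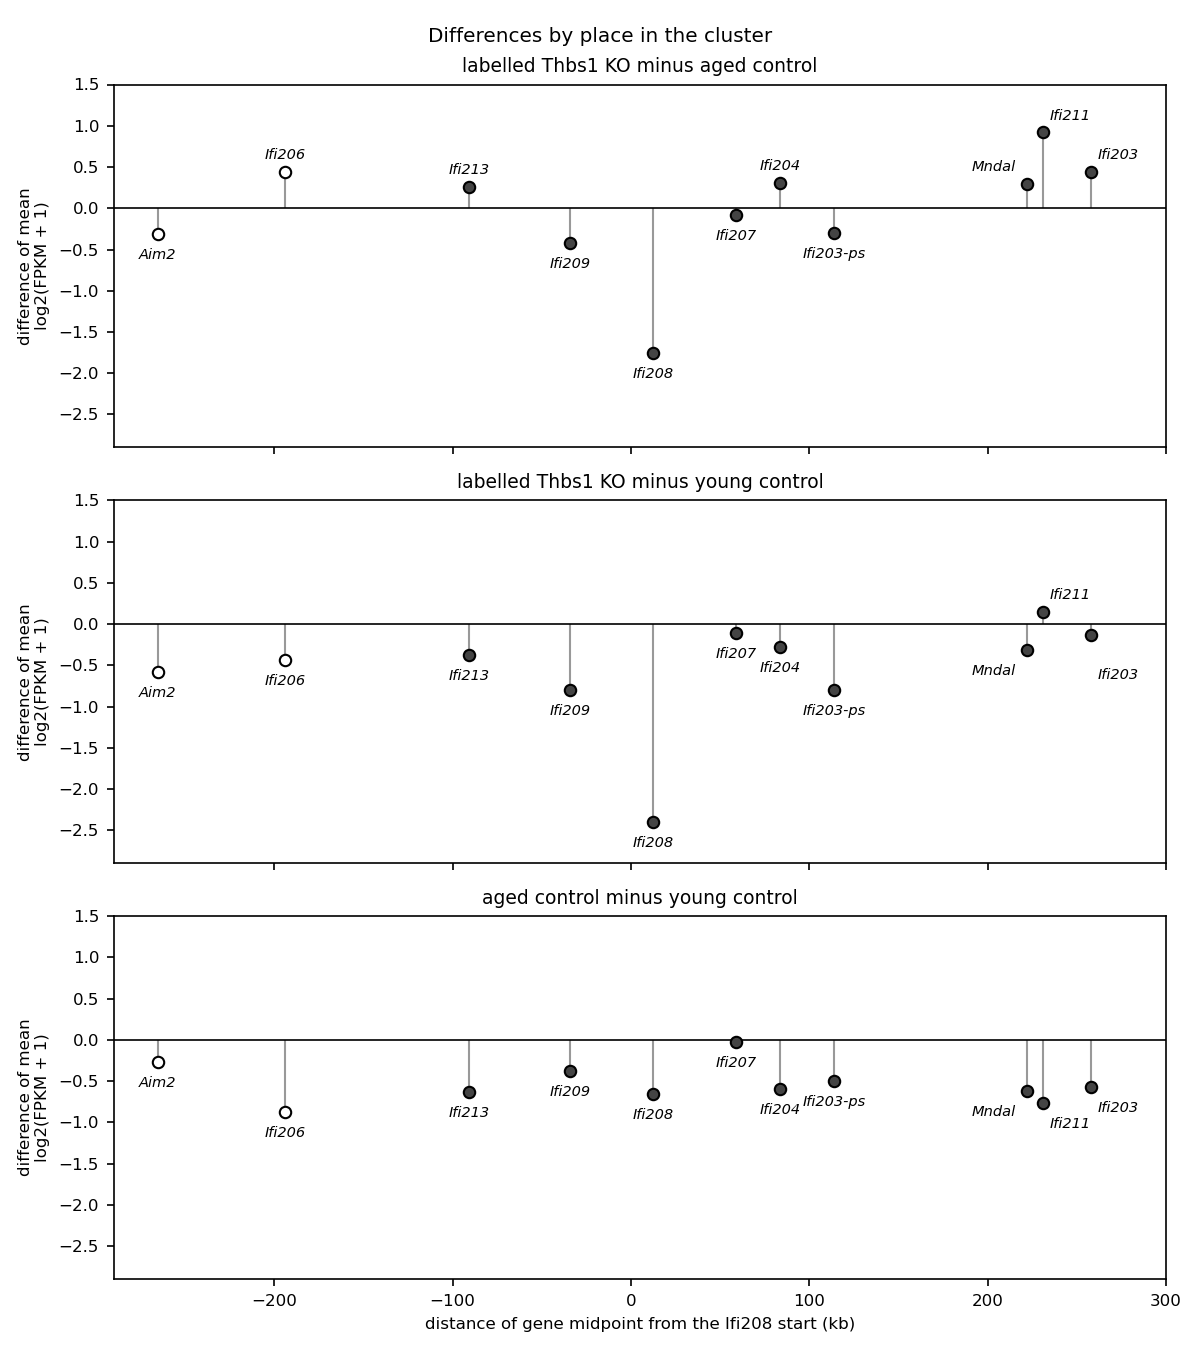
Difference of the mean log2(FPKM + 1) for each PYHIN gene against the distance of its midpoint from the Ifi208 start in kb, for the 3 comparisons on one vertical scale. Filled points are members and open points are Aim2 and Ifi206. Ifi208 stands at -1.75 and -2.40 in the libraries labelled knockout against aged and young controls, with Ifi213 at 0.26 and Ifi204 at 0.31 against aged controls, and all members are below 0 in aged against young controls.

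Between aged and young controls 3 of the 7 tested members fell in limma: Ifi204, Ifi211 and Ifi203-ps. The low Ifi208 level that picked the family lies outside this comparison, although the controls are the libraries against which it was low and the libraries labelled knockout enter the estimate of spread. All 9 members had a lower mean in aged controls, with log2 differences of -0.77 to -0.03, and the groups overlapped for Ifi207, Mndal and Ifi203. Of all tested genes 56.0% were lower and 44.0% higher. Of the 9 members, 6 did not overlap and were lower in aged controls, against 21.8% of all tested genes, and 0 were higher without overlap, against 13.9%. Of the 9, 7 passed the filter of a mean of 1 FPKM over the 9 libraries, and Ifi208 passed it through its controls alone. Ifi207 and Ifi209, which is among the 6 without overlap, did not pass, while the shares of all tested genes leave such low genes out. The 3 that fell had an adjusted p under 0.05, against 2.80% of all tested genes called lower, and 0 rose, against 1.20% (0 also at an unadjusted p under 0.05 and 0 with voom). All 7 were lower at an unadjusted p under 0.05, against 17.4% of all tested genes. For Ifi208 the SE and p-value also draw on the libraries labelled knockout. Its SD there was 0.04 FPKM, against 0.261 in aged and 1.33 in young controls. The near absence that picked the family thus enters its estimate of spread.

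Ifi211 averaged 4.57 ± 0.416 FPKM in aged controls and 8.54 ± 1.18 FPKM in young controls (SD, n = 3 each), a log2 difference of -0.77 ± 0.130 SE (limma adjusted p = 0.0261). Ifi204 averaged 27.0 ± 1.70 FPKM in aged controls and 41.3 ± 3.40 FPKM in young controls (-0.60 ± 0.116 SE, limma adjusted p = 0.0362). Ifi203-ps averaged 3.85 ± 0.203 FPKM in aged controls and 5.83 ± 0.330 FPKM in young controls (-0.50 ± 0.117 SE, limma adjusted p = 0.0481). In these 3 genes each aged control was below each young control. The other 4 tested members missed the threshold: Ifi208 at -0.66 ± 0.169 SE (limma adjusted p = 0.0595), Ifi203 at -0.57 ± 0.177 SE (limma adjusted p = 0.0842), Ifi213 at -0.63 ± 0.196 SE (limma adjusted p = 0.0844) and Mndal at -0.62 ± 0.235 SE (limma adjusted p = 0.129). The sizes of these 7 differences lay between -0.77 and -0.50, so a called member did not stand apart in size from one that was not called. Of the 2 members under the filter, Ifi209 gave p = 0.1 in a two-sided exact permutation test, the smallest that 3 against 3 libraries allow, and Ifi207 gave p = 1 in the same exact test.

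The number of called members depended on which library was left out. It was 0 when any of the 3 young controls was left out, and 1 without aged control replicate 2, without aged control replicate 3 or without labelled knockout replicate 3. It was 4 without aged control replicate 1 or labelled knockout replicate 2, and 2 without labelled knockout replicate 1. With no filter on low values it was 0. The call of Ifi203-ps was also lost under median-ratio scaling (limma adjusted p = 0.0603), quantile normalization (0.0698) and voom (0.0583). Young control replicate 1 was the highest of its group for 7 of 9 members, against 36.4% of all tested genes, and aged control replicate 1 was the highest of its group for 7 of 9, against 35.8%. Stromal marker sums were lower in each aged than in each young control, as given above, and their part in the members' differences was not tested. Ptprc was at most 0.13 FPKM in each library, but other blood cell markers were higher. The B and plasma cell sum was 477 to 3013 FPKM in aged controls and 5.86 to 517 FPKM in young controls. The macrophage and monocyte sum was 79.4 to 92.8 FPKM in aged controls and 62.6 to 109 FPKM in young controls. The part of blood cells in the members' differences was not tested either.

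The summed level of the 9 members was 83.7, 64.4 and 77.3 FPKM in the libraries labelled knockout, 72.1, 53.4 and 58.5 FPKM in aged controls, and 107, 92.4 and 90.7 FPKM in young controls. Ifi204 gave 39.9% to 47.5% of this sum in each of the 9 libraries and Mndal 20.1% to 31.8%. Ifi208 gave 0.0155% to 0.116% of it in the libraries labelled knockout, 3.86% to 4.77% in aged controls and 3.96% to 5.77% in young controls. The share of Ifi211 was 10.4% to 15.4% in the libraries labelled knockout, 5.90% to 8.61% in aged controls and 8.24% to 9.24% in young controls. Leaving Ifi208 out, the sum averaged 75.1 ± 9.79, 58.8 ± 9.48 and 92.0 ± 7.54 FPKM (SD, n = 3 each) in the 3 groups in that order, so Ifi208 made up little of the family total in any group.

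Other PYHIN genes of the cluster were read in part. Aim2 (173350879 to 173466040, + strand), the inflammasome sensor of cytosolic DNA, stood at 4.93, 5.78 and 3.95 FPKM in libraries labelled Thbs1 knockout, at 7.80, 7.42 and 4.17 FPKM in aged controls, and at 8.18, 7.85 and 7.23 FPKM in young controls. It was called in none of the 3 comparisons (limma adjusted p = 0.361 to 0.402). Ifi202b, Ifi205 and Ifi214 stood at 0 to 0.13 FPKM in each library and were not tested. Of the 61 other genes within 1 Mb of the members, 7 were tested, Aim2 and Ifi206 among them, all on the Ifi213 side, and with limma 0 were called in any comparison. At an unadjusted p under 0.05, 4, 2 and 1 of them passed in aged against young controls, labelled knockout against aged controls and labelled knockout against young controls, where 27.7%, 24.1% and 9.27% of all tested genes did. With voom 0 were called. Ackr1, the atypical chemokine receptor of venules, was among them at 926, 1196 and 783 FPKM on average in labelled knockout, aged control and young control libraries. Leaving out labelled knockout replicate 2 brought 2 flanking calls against aged controls, both lower, and leaving out aged control replicate 3 brought 1.

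The genes whose profile over the 9 libraries was nearest to Ifi208, by the Euclidean distance between scaled log2(FPKM + 1) values among tested genes, were Snord13 (distance 0.68), Cyp51 (0.69), Whamm (0.81), A430033K04Rik (0.92) and Commd10 (0.97). None of the 5 lies on chromosome 1. All had the order young control, aged control, labelled knockout but a far smaller span: Cyp51, a sterol synthesis enzyme, was at 2.03, 2.02 and 2.22 FPKM in libraries labelled Thbs1 knockout, 2.92, 2.58 and 2.83 FPKM in aged controls and 3.13, 2.86 and 2.99 FPKM in young controls. The scaling removes the size of a difference, so likeness here is of shape. Of the tested members, Ifi203-ps was nearest to Ifi208, at rank 49, and Ifi211 was farthest, at rank 10065. Ifi209 and Ifi207 are under the filter and were not ranked, so either could lie nearer.

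The other interferon genes are set beside the family from lists of textbook members. In aged against young controls, 7 of 33 tested interferon-stimulated genes fell and 1 rose, against 2.80% and 1.20% of all tested genes, with a list median of -0.28 against -0.05 for all tested genes. Left-out libraries moved the count of 8: it was 0 without young control replicate 1 or 3, 2 without young control replicate 2, aged control replicate 3 or labelled knockout replicate 3, and 3 without aged control replicate 1 or 2. Cxcl10, a chemokine, averaged 16.7 ± 6.44 FPKM in aged controls and 80.2 ± 32.8 FPKM in young controls (SD, n = 3 each, limma adjusted p = 0.0168). The GTPase gene Iigp1 averaged 109 ± 12.1 FPKM in aged controls and 315 ± 64.8 FPKM in young controls (SD, n = 3 each, limma adjusted p = 0.00814). Eif2ak2, the kinase PKR, and Ifi44 had differences of -0.81 and -0.78. Their calls held in 9 of 17 and 8 of 18 alternative fits (limma adjusted p up to 0.141 and 0.151). The gene that rose was Bst2, an antiviral tether, named after its value was seen. The call of Bst2 held in 10 of 18. Of 14 genes of interferon receptors and signalling 1 fell, the transcription factor Irf1, at 93.8 ± 6.94 FPKM in aged controls and 198 ± 27.4 FPKM in young controls (SD, n = 3 each, limma adjusted p = 0.00684, and 0.0521 without young control replicate 1).

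In the libraries labelled knockout against aged controls, 7 of the 33 interferon-stimulated genes rose and 0 fell (limma; 1 was lower at an unadjusted p under 0.05, and voom called 0 lower), against 2.78% and 2.01% of all tested genes, with a list median of 0.20 against 0.00. The comparison shares its aged control libraries with the one above. Cxcl10 averaged 166 ± 39.1 FPKM in the libraries labelled knockout and 16.7 ± 6.44 FPKM in aged controls (SD, n = 3 each, limma adjusted p = 0.00123). Iigp1 averaged 341 ± 84.2 FPKM in the libraries labelled knockout and 109 ± 12.1 FPKM in aged controls (SD, n = 3 each, limma adjusted p = 0.00264). Mx2, annotated as a polymorphic pseudogene, and the GTPase gene Irgm1 had log2 differences of 1.28 and 1.08. Of the 14 receptor and signalling genes, 3 rose: Irf1 (log2 difference 1.70), Socs1, a feedback inhibitor (1.13), and Irf7 (0.86). Irf7 missed the threshold in 6 of 9 fits with a library left out. The count of 7 interferon-stimulated genes was 4 without aged control replicate 2 or 3 or labelled knockout replicate 3. Without labelled knockout replicate 2 it was 7, with 6 higher and 1 lower.

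Against young controls, 0 of the 33 interferon-stimulated genes were called in the libraries labelled knockout with limma, where 0.0848% of all tested genes were called higher and 0.127% lower, and 0 with voom, while 4 were higher and 4 lower at an unadjusted p under 0.05, against 3.00% and 6.27% of all tested genes. The partners of PYHIN proteins in DNA sensing showed no call in any of the 3 comparisons, with 0 of 10 tested genes called by limma or voom. At an unadjusted p under 0.05, 3, 4 and 1 of the 10 passed in aged against young controls, labelled knockout against aged controls and labelled knockout against young controls, against the same shares of all tested genes as for the flanking genes (27.7%, 24.1% and 9.27%). The 4 in labelled knockout against aged controls were 2 higher, Sting1 and Pycard, and 2 lower, Casp1 and Gsdmd, and by mean the 10 split into 5 higher and 5 lower. Sting1, the adaptor downstream of cytosolic DNA sensing, averaged 105 ± 14.5, 84.1 ± 9.18 and 79.1 ± 4.68 FPKM (SD, n = 3 each) in labelled knockout, aged control and young control libraries, and the inflammasome adaptor gene Pycard averaged 4.86 ± 1.08, 3.33 ± 0.526 and 3.65 ± 0.150 FPKM. The inflammasome protease gene Casp1 averaged 31.0 ± 7.51, 50.7 ± 19.5 and 37.9 ± 3.32 FPKM, and Gsdmd, the gene of the pore former gasdermin D, 37.2 ± 5.23, 44.9 ± 3.06 and 37.6 ± 2.23 FPKM, in the same order of groups. Without labelled knockout replicate 2, 1 of the 10 was called higher against aged controls.

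**Figure D4:**
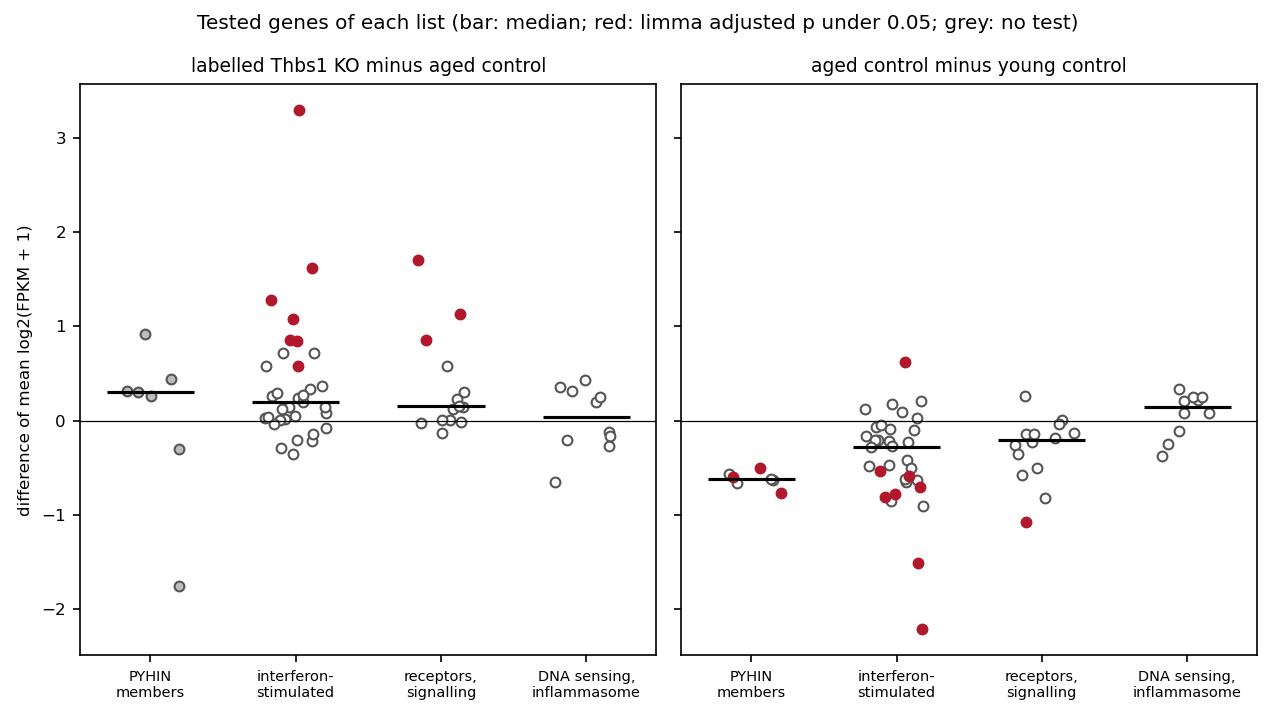
Difference of the mean log2(FPKM + 1) of the tested genes of each list, labelled knockout minus aged control on the left and aged control minus young control on the right, with the median as a bar. Red points passed limma at an adjusted p under 0.05, and grey points are members for which no test is given. In aged minus young controls the 7 tested members lie between -0.77 and -0.50, and in labelled knockout minus aged controls they run from -1.75 to 0.92.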

How the data were processed

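RNA of sorted marrow endothelial cells was made into libraries with a SMART-Seq kit for low input, per the labels' protocols. The authors deposited FPKM, rounded to 2 decimals. STAR, edgeR and FastQC 0.11.5 are named per the submitters' processing notes, as are the builds mm10 and GRCm38, without their roles. How reads were counted, and on which strand, is not stated in any source here. All 52183 identifiers matched GENCODE M21.

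The members and gene lists were chosen with earlier results of these data known. Labels gave the groups and the replicate numbers. The tests used limma 3.58.1 (R 4.3.3) on log2(FPKM + 1), so the pseudocount was 1, with 1 fit of all 9 libraries, 6 residual degrees of freedom, eBayes with a trend, and Benjamini-Hochberg adjustment over the 11796 genes whose mean reached 1 FPKM. The fit was tested on simulated data. Depth was recovered as the value at which low FPKM of genes of 60 to 400 bases are whole fragments, which held for 99.6% to 99.8% of values within a tolerance of 0.1. Alternatives were limma voom on recovered fragments, leaving out each library, a replicate block, a fit of only the compared groups, and other scalings, filters and pseudocounts.

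All 9 members, the other PYHIN genes, up to 4 called genes of each list and comparison by size, called flanking genes and the nearest ones, the 5 genes most like Ifi208, and Thbs1 are named by rule. Outside the rule are Ackr1, Sting1, Pycard, Casp1, Gsdmd and Bst2, picked with their values known. The likeness, motif and word searches used Python 3.11.15, and figures matplotlib 3.10.9.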

Additional observations from a re-analysis of the deposited data

How the results depend on the processing

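The 7 tested members kept the sign of their differences in each alternative run for them, in all 3 comparisons. Ifi207 and Ifi209 are under the filter and were compared only without it. For Ifi208 the log2 difference between the libraries labelled knockout and aged controls ran from -5.93 with voom to -0.58 with a pseudocount of 5, since a fitted fold of so low a gene depends on the added count. Of the calls with age, Ifi211 held in 14 of 18 alternatives (limma adjusted p = 0.0172 to 0.125), Ifi204 in 11 of 18 (0.0124 to 0.144) and Ifi203-ps in 3 of 17 (0.0262 to 0.173).

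Without a filter, 0 members and 1 interferon-stimulated gene were called with age and 3 interferon-stimulated genes in labelled knockout against aged controls, and calls over all genes were 39 in aged against young controls, 146 in labelled knockout against aged controls and 15 in labelled knockout against young controls. The main counts were 471, 565 and 25. More genes are tested there (36202). With a mean of at least 5 FPKM the last count was 12 and the receptor and signalling genes called with age were 2. The compared groups alone gave 716 calls with age, 149 in labelled knockout against aged controls, and 2 receptor and signalling calls with age and 4 interferon-stimulated calls in labelled knockout against aged controls. Quantile normalization gave 4 interferon-stimulated calls with age, and voom 2 receptor and signalling calls with age. Median-ratio scaling split the calls with age into 238 higher and 196 lower, against 141 and 330, and quantile normalization into 160 and 199. The cause of the other changes was not tested.

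With the replicate number as a block, 183 genes and 5 interferon-stimulated genes were called with age, and 2 members. Same-numbered libraries had correlations of -0.13 to 0.12 in their deviations from the group means, and 3 of 9 libraries correlated best with their own number, so the numbers were not taken as pairs.

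Leaving out each library in turn gave 5 to 1039 calls with age, 197 to 1159 in labelled knockout against aged controls and 11 to 31 against young controls. It gave 0 to 4 members called with age, 0 to 10 interferon-stimulated genes with age and 4 to 7 in labelled knockout against aged controls. For receptor and signalling genes with age the range was 0 to 2, for DNA sensing genes in labelled knockout against aged controls 0 to 1, and for flanking genes there 0 to 2.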
